A study of Homo sapiens with 12 samples.

Results

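The genes described here are 33 named genes of glycolysis and of the transcriptional response to low oxygen. No threshold on a measured value picks them, but the list was drawn up with earlier results of these data known. Of these, 31 had a probe set with a single gene symbol, out of 19775 genes with such a probe set on the array. SLC16A3, which encodes a lactate exporter, and CA9, which encodes a carbonic anhydrase, had none in the annotation used here. EGLN3, a prolyl hydroxylase gene, read 2.48 to 3.31 on the 12 arrays, below the floor of 4 on the log2 scale under which a value was read as not above background. The other 30 genes were tested among 10561 genes that exceeded this floor on at least 2 arrays.

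RNA came from SEM-K2 and RS4:11, 2 established human lines of acute lymphoblastic leukaemia that both carry a fusion of KMT2A (MLL) with AFF1. Each line was exposed for 6 h to obatoclax, a small molecule made to inhibit the antiapoptotic BCL2 proteins, at 3 times its 72 h EC50 (written 3xEC50) or at the EC50 itself, or to vehicle. An EC50 is a concentration that gives an effect halfway up its range. The sources used here give no molar concentrations. There were 2 biologic replicates of each of the 6 conditions, numbered 1 and 2, each hybridised to an Affymetrix U133 Plus 2 array. Nothing in the labels ties replicates to separate cultures or days, and the p-values therefore measure only how far these samples vary, which may be technical in part.

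Glycolysis splits glucose into pyruvate in the cytosol, and lactate dehydrogenase turns pyruvate into lactate. In normal oxygen, prolyl hydroxylases of the EGLN family mark the transcription factor HIF1A for destruction. When oxygen is short, HIF1A persists, pairs with ARNT and binds DNA at the core letters ACGTG or GCGTG near its target genes. Among those targets are genes of glucose uptake, several glycolytic enzymes and VEGFA, a growth factor for blood vessels. The kinase PDK1, which limits the oxidation of pyruvate in the mitochondria, is another. Leukaemia cells in culture commonly run glycolysis at a high rate.

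The promoters of 6 of these genes are shown because their RNA levels carry the results below. PFKFB4, ALDOC, ANKRD37 and KDM3A differed between the replicate numbers, LDHA did not pass that test although its promoter holds the most matches, and ENO2 differed between the lines. Each sequence runs from 250 bases upstream to 50 bases downstream of the annotated start, from RefSeq on GRCh38.p14, 5′ to 3′ on the gene's strand. Capitals mark ACGTG or GCGTG read on either strand (CACGT and CACGC are the same letters on the other strand), and overlapping matches form 1 stretch.
PFKFB4 (chr3:48556754-48557053, minus strand): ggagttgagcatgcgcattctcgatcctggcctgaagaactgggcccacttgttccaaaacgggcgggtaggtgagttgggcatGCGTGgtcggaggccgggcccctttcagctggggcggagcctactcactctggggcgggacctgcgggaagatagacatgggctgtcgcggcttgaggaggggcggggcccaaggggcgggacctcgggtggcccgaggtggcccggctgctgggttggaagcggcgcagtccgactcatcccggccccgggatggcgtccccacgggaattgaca
ALDOC (chr17:28576846-28577145, minus strand): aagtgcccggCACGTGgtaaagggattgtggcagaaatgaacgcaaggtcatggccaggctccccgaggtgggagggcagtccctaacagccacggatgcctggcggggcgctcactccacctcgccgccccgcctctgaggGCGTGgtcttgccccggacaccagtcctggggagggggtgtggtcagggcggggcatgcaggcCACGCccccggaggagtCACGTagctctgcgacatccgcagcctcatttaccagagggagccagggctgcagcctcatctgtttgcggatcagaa
ANKRD37 (chr4:185396591-185396890, plus strand): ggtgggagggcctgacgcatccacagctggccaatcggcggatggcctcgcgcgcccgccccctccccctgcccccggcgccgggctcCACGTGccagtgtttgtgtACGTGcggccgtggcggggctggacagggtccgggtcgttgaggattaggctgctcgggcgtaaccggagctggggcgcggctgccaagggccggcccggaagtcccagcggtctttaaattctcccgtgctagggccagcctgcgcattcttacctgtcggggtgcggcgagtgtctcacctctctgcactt
KDM3A (chr2:86441121-86441420, plus strand): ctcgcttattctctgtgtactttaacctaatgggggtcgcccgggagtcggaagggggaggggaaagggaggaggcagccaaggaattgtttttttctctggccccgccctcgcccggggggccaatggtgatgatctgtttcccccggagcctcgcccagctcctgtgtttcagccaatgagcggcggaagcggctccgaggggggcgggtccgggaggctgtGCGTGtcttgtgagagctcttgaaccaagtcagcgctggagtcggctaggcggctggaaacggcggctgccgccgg
LDHA (chr11:18394313-18394612, plus strand): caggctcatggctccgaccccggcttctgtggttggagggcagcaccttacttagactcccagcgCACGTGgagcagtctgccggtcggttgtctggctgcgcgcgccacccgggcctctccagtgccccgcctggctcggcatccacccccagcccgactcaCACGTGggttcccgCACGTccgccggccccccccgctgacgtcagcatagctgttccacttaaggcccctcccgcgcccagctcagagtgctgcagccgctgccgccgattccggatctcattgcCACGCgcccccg
ENO2 (chr12:6914330-6914629, plus strand): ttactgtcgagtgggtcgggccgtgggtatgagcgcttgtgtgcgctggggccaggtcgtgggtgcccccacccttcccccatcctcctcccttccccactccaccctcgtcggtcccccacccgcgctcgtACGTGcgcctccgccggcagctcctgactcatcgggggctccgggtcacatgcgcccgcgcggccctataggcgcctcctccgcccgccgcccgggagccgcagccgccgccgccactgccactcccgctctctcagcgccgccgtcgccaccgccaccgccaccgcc

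A match describes letters and is not a binding site. RefSeq promoters were found for 31 of the 33 genes. Of these 31, 22 held at least 1 match (71%), against 48.4% of all 27305 promoters of the same length. At least 2 separate stretches were present in 6 of the 31 (19.4%), against 20% of all promoters. LDHA had 6 matches in 4 stretches, ALDOC had 5 in 4, and PGK1 had 4 in 4. HK2 had 3 matches in 3 stretches, and ANKRD37 had 3 in 2. PFKFB4, KDM3A and ENO2 had 1 match each, and PDK1 had none in this window.

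The lines carried the RNA of their labelled type. Of 14 B cell precursor markers with a probe set, 14 exceeded the floor in RS4:11 and 11 in SEM-K2, and 5 of 5 genes typical of MLL fusion leukaemia did so in both lines. Of markers of other cells, NKG7 was the 1 of 11 T and NK cell genes, CSF1R the 1 of 11 myeloid genes, ITGA2B the 1 of 6 erythroid and megakaryocyte genes, and COL1A1 and KRT8 the 2 of 10 fibroblast and epithelial genes above the floor. Between 41.7% and 42.8% of probe sets exceeded the floor on each array. SEM-K2 3xEC50 replicate 2 stood apart in RNA quality: its ACTB signal was 1.97 higher at the 3′ end than at the 5′ end on the log2 scale, against 0.87 to 1.23 on the other 11 arrays, and for GAPDH 0.61 against 0.08 to 0.30. Deviations between replicates 1 and 2 correlated across genes in all 15 pairs of conditions (r from 0.191 to 0.601, median 0.35). By that measure the replicate number pairs the arrays, although the labels do not say what it stands for, so results with the number as a block are given where they change a call.

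A set of 12 members, most of them known as hypoxia-induced genes, was higher on the replicate 1 array than on the replicate 2 array of the same line and dose, in all 6 conditions, where 7.71% of all 10561 genes were called higher on replicate 1 and 4.6% lower. The difference was largest in PFKFB4, one of the enzymes that set the level of the sugar phosphate activating phosphofructokinase, followed by ALDOC, an aldolase. Apart from HK2 and ALDOC, no enzyme of the glycolytic chain was called, with differences of at most 0.59 ± 0.26 (ENO2) and 0.38 ± 0.18 (PFKL). Since RNA was measured in bulk, fewer cells with a transcript and less of it per cell cannot be told apart here. This comparison was chosen after the data were seen. Each number is 1 set of arrays, and deviations between the numbers were correlated across conditions. The SEs and p-values of this comparison thus measure agreement across the 6 pairs of line and dose. They do not measure how far one replicate set varies from another.

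In SEM-K2, PFKFB4 read 9.0, 9.32 and 9.33 on replicate 1 with vehicle, EC50 and 3xEC50, and 6.33, 7.2 and 7.67 on replicate 2. In RS4:11 it read 7.25, 7.51 and 7.12 on replicate 1 and 3.84, 4.72 and 3.90 on replicate 2, where the vehicle and 3xEC50 arrays lay just under the floor. The 2 numbers did not overlap in either line. Over the 6 pairs of arrays the difference was 2.65 ± 0.21 (log2, SE), a 6.26-fold difference with an adjusted p of 0.000898 in limma, and PFKFB4 was the 3rd of 10561 genes by size. Its second probe set, above the floor on 2 of 12 arrays, gave 0.69.

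ALDOC read 10.61, 10.77 and 10.89 on SEM-K2 replicate 1 with vehicle, EC50 and 3xEC50, and 8.30, 8.81 and 9.30 on replicate 2. In RS4:11 it read 8.99, 9.25 and 9.16 on replicate 1 and 7.71, 8.11 and 8.14 on replicate 2. The numbers again did not overlap within a line, with a difference of 1.55 ± 0.17 (adjusted p = 0.00376, limma). ALDOA, the main muscle and red cell aldolase, differed by 0.25 ± 0.10 and did not pass (adjusted p = 0.12).

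In all, 12 of the 30 members were called higher on replicate 1 and 0 lower at an adjusted p under 0.05. Beside PFKFB4 and ALDOC these were PFKFB3, a relative of PFKFB4 (0.98 ± 0.13), and the hexokinase HK2, which traps glucose in the cell (0.59 ± 0.08). They also included PDK1 (0.84 ± 0.09) and the glucose transporters SLC2A1 (0.83 ± 0.11) and SLC2A3 (0.84 ± 0.10). Outside metabolism they were VEGFA (1.45 ± 0.22), ANKRD37, a small ankyrin protein gene induced by HIF1A (1.13 ± 0.13), P4HA1, a subunit of the collagen prolyl hydroxylase (1.02 ± 0.08), the histone demethylase KDM3A (0.92 ± 0.11) and the oxygen sensor EGLN1 (0.33 ± 0.08). Their adjusted p-values in limma ran from 0.000898 for PFKFB4 to 0.0286 for EGLN1. All 12 lay higher on replicate 1 in 6 of 6 conditions. Averaging a gene's probe sets lowered PFKFB4 to 1.67, VEGFA to 0.85, ANKRD37 to 0.70, P4HA1 to 0.47, KDM3A to 0.46 and SLC2A1 to 0.43, all still called, and HK2 to 0.15 (adjusted p = 0.178). Without a filter on low values VEGFA lost its call (adjusted p = 0.0521), and EGLN1 lost it without 1 array in 8 of 12 cases (adjusted p up to 0.0699).

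The regulators of glucose use showed the same order in each line. PFKFB3 in SEM-K2 read 9.06, 9.56 and 9.51 on replicate 1 with vehicle, EC50 and 3xEC50 and 7.96, 8.97 and 8.89 on replicate 2. In RS4:11 its values were 8.36, 8.76 and 8.35 on replicate 1 and 7.04, 7.26 and 7.61 on replicate 2. PFKFB3 is the PFKFB enzyme with the strongest kinase activity, and its numbers did not overlap in either line. PDK1 in SEM-K2 gave 10.35, 10.42 and 10.45 on replicate 1 with vehicle, EC50 and 3xEC50 and 9.51, 9.56 and 9.56 on replicate 2. RS4:11 gave 9.27, 9.46 and 9.1 on replicate 1 and 8.72, 8.31 and 8.35 on replicate 2. The SEM-K2 values of PDK1 hardly moved with dose, and those of the 2 numbers stood apart by 0.83 to 0.90.

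For glucose entry, the widely expressed transporter SLC2A1 gave, in SEM-K2, 6.7, 6.79 and 6.65 on replicate 1 with vehicle, EC50 and 3xEC50 and 5.43, 5.8 and 5.77 on replicate 2. Its RS4:11 values were 5.26, 5.26 and 5.26 on replicate 1 and 4.67, 4.81 and 4.47 on replicate 2. The 3 replicate 1 arrays of RS4:11 were alike to 2 decimals and lay above every replicate 2 array of that line. SLC2A3 in RS4:11 read 7.49, 8.0 and 7.67 on replicate 1 and 6.43, 6.9 and 6.69 on replicate 2. In SEM-K2, where its values are given with the drug comparison, the 2 numbers of SLC2A3 overlapped across doses, since treated replicate 2 arrays lay above the vehicle array of replicate 1. HK2, the next step, read in SEM-K2 11.91, 12.16 and 12.22 on replicate 1 with vehicle, EC50 and 3xEC50 and 11.27, 11.38 and 11.57 on replicate 2. Its RS4:11 arrays read 10.87, 10.94 and 10.72 on replicate 1 and 10.5, 10.25 and 10.3 on replicate 2. HK2 numbers did not overlap within a line.

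Of the members outside metabolism, P4HA1 gave in SEM-K2 11.01, 11.21 and 11.09 on replicate 1 with vehicle, EC50 and 3xEC50 and 9.77, 10.14 and 10.03 on replicate 2. It gave in RS4:11 10.19, 10.18 and 9.99 on replicate 1 and 9.07, 9.25 and 9.26 on replicate 2. No replicate 2 array of a line reached a replicate 1 array of that line. KDM3A had, in SEM-K2, 10.45, 10.89 and 10.93 on replicate 1 with vehicle, EC50 and 3xEC50 and 9.61, 10.1 and 10.32 on replicate 2. KDM3A had, in RS4:11, 9.97, 10.43 and 10.1 on replicate 1 and 8.65, 9.19 and 9.4 on replicate 2. The same separation held for KDM3A. EGLN1 was measured in SEM-K2 at 10.94, 11.22 and 11.22 on replicate 1 with vehicle, EC50 and 3xEC50 and 10.54, 10.72 and 10.79 on replicate 2. EGLN1 was measured in RS4:11 at 10.77, 10.76 and 10.81 on replicate 1 and 10.49, 10.63 and 10.56 on replicate 2. Its numbers lay close, and still did not overlap within a line. VEGFA in SEM-K2 read 8.21, 8.57 and 8.38 on replicate 1 with vehicle, EC50 and 3xEC50 and 7.27, 7.68 and 7.51 on replicate 2.

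**Figure D1:**
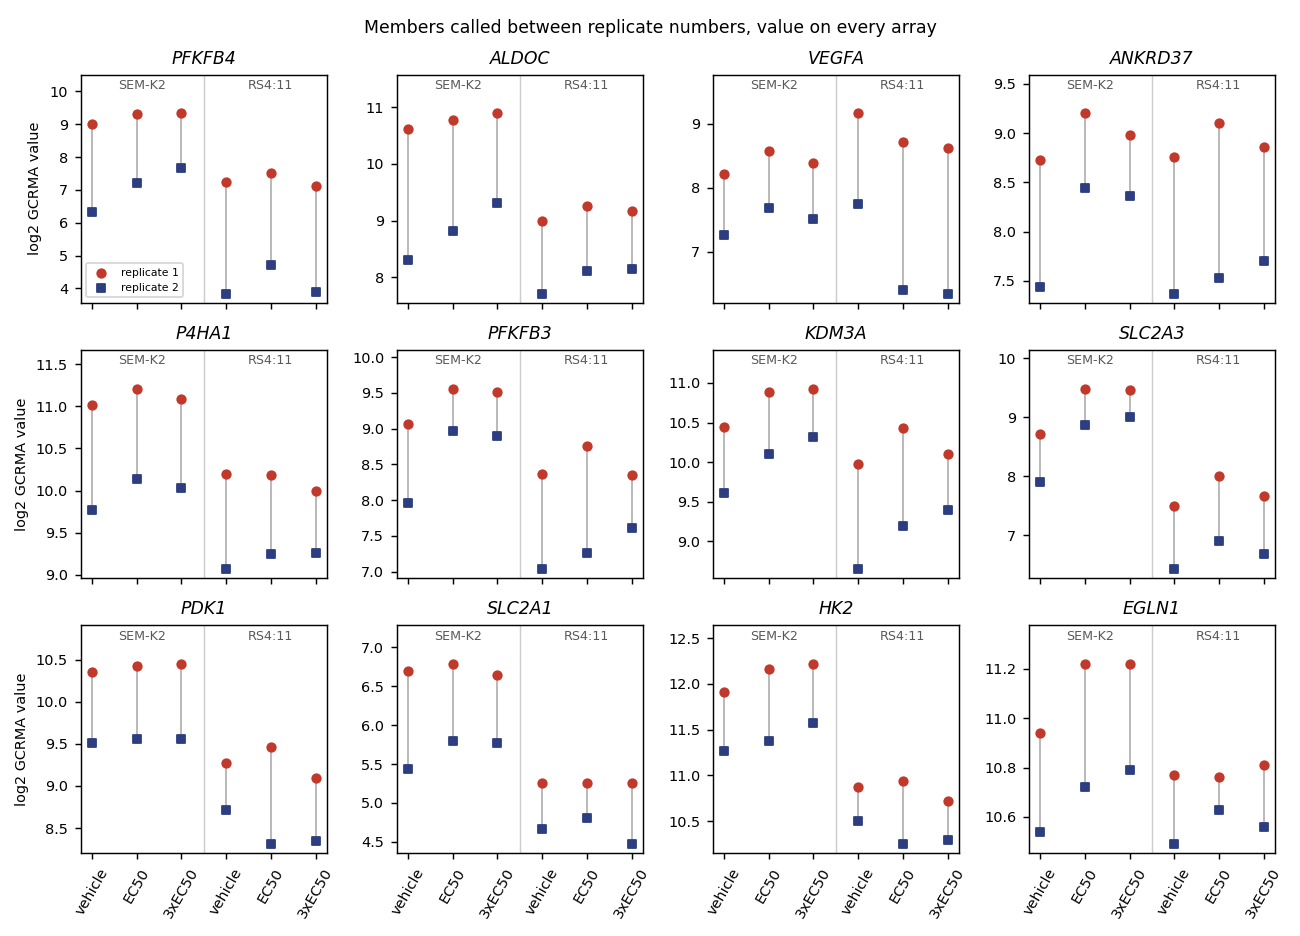
Log2 GCRMA value (vertical axis, 1 scale per gene) of the 12 members called between the replicate numbers, on every array by line and dose, with replicate 1 as red circles, replicate 2 as blue squares and a grey line joining the pair. The red circle lies above the blue square in all 6 conditions of each gene, by 2.65 on average for PFKFB4 and 0.33 for EGLN1.

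The plot of every array shows the offset between the numbers in each of the 12 genes at every dose. VEGFA had its widest gap in treated RS4:11, with 8.72 on replicate 1 and 6.4 on replicate 2 at the EC50. ANKRD37 read 8.73, 9.20 and 8.98 on SEM-K2 replicate 1 with vehicle, EC50 and 3xEC50, and 7.44, 8.44 and 8.36 on replicate 2. In RS4:11 it read 8.76, 9.10 and 8.86 on replicate 1 and 7.37, 7.53 and 7.70 on replicate 2, so that every replicate 1 array lay above every replicate 2 array of either line.

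Some enzymes of the central steps of glycolysis gave differences near 0, and others were higher on replicate 1 without being called. GAPDH, which oxidises glyceraldehyde phosphate, differed by 0.07 ± 0.07, the enolase ENO1 by 0.03 ± 0.08, HK1 by 0.00 ± 0.11 and LDHB by -0.04 ± 0.07, and none of them passed the test. The other ENO1 probe sets, all with lower means, gave 0.35, -0.16 and 1.15. LDHA, the lactate dehydrogenase subunit known as a HIF1A target, read 14.27 to 14.86 over all arrays. It was higher on replicate 1 in each condition, by 0.19 ± 0.07 (adjusted p = 0.0844). The liver, muscle and platelet subunits of phosphofructokinase, the committing enzyme of the chain, differed by 0.38 ± 0.18 (PFKL), -0.10 ± 0.08 (PFKM) and 0.18 ± 0.10 (PFKP). TPI1 (0.29 ± 0.10), PGK1 (0.23 ± 0.09) and PGAM1 (0.25 ± 0.09), which follow aldolase and GAPDH in the chain, had adjusted p-values of 0.097 to 0.103 in limma. PKM, the last kinase of the chain, differed by -0.17 ± 0.12. ADM, a vasodilator peptide gene, was above the floor on 2 of 12 arrays, both SEM-K2 replicate 1 with obatoclax (5.29 at the EC50 and 4.74 at 3xEC50), and its difference of 0.81 ± 0.31 was not called (adjusted p = 0.109). Within SEM-K2, where 4 of 6 arrays lay under the floor, it was called (1.57 ± 0.25, adjusted p = 0.018, limma). ADM passed the filter on low values only through those 2 replicate 1 arrays, so no weight is put on that call. HIF1A itself differed by 0.12 ± 0.09 (adjusted p = 0.383). GPI, the phosphoglucose isomerase, was lower on replicate 1 in all 6 conditions, by 0.08 to 0.23, and was not called (adjusted p = 0.123). In total 13 of 30 members were higher on replicate 1 in all 6 conditions, against 13% of all genes, and 1 was lower in all 6, against 8.72%. The median of the members was 0.35 and that of all genes 0.02. Of the 30 members 26 lay above 0 (86.7%), against 53.7% of all genes. At an unadjusted p under 0.05 limma gave 21 of the 30 members and 3421 of all 10561 genes.

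**Figure D2:**
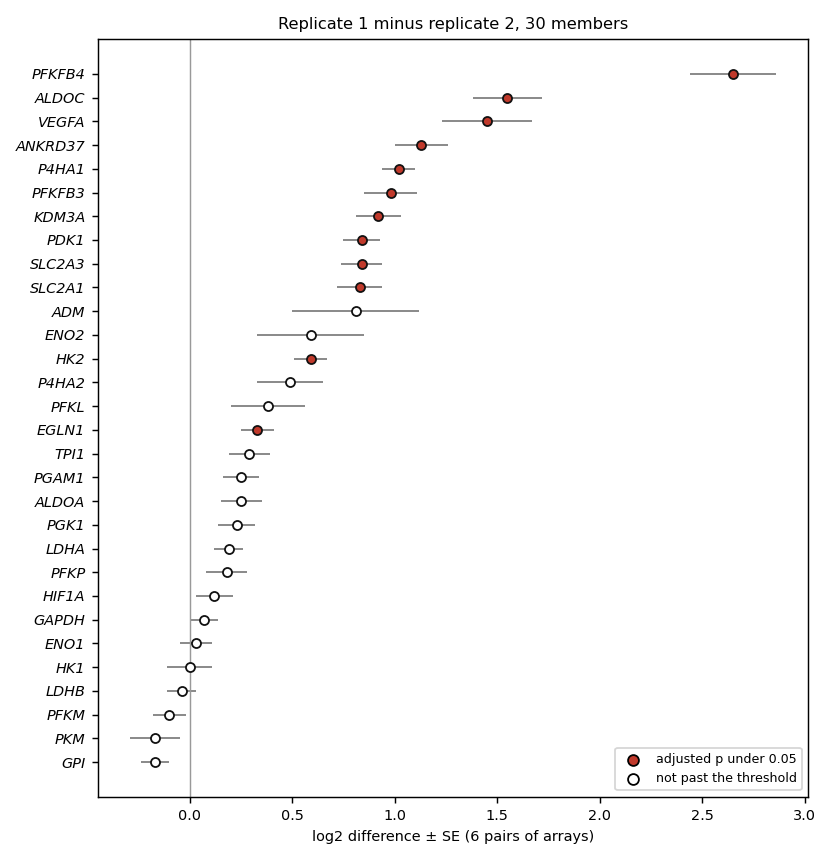
Difference of replicate 1 minus replicate 2 (horizontal axis, log2, with its SE over 6 pairs of arrays) for the 30 tested members, ordered by size, with red points past an adjusted p of 0.05. Values run from -0.17 for GPI and PKM to 2.65 for PFKFB4, and 26 of 30 lie above 0 (all genes 53.7%).

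In SEM-K2 alone 14 members were called higher and 0 lower, where 3.08% of genes were called higher and 0.672% lower. These were the 12 genes above with ENO2 (1.18 ± 0.25, adjusted p = 0.0468 in limma) and ADM. The call of ADM carries no weight, since it passed the filter on low values only through replicate 1 arrays of this line. In RS4:11 alone 11 were called higher and 0 lower, where 4.96% were called higher and 1.97% lower. These were the 12 genes without EGLN1. No member's difference was called as unequal between the lines (smallest adjusted p = 0.164 in limma, for VEGFA, and 9 members at an unadjusted p under 0.05), where 0.227% of all genes were called.

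Other genes of the same pathways, from lists that hold no member and were drawn up with earlier results of these data known, gave the following counts. Of 36 other hypoxia response genes tested, 18 were higher on replicate 1 and 0 lower (7.71% and 4.6% of all genes). Of the same genes, 36 of 36 lay above 0 (all genes 53.7%), with a median of 0.55 (all genes 0.02). The largest was TMEM45A, a membrane protein gene, which read 7.85, 7.94 and 7.69 on SEM-K2 replicate 1 with vehicle, EC50 and 3xEC50, and 4.36, 4.70 and 4.38 on replicate 2. In RS4:11 it read 5.94, 5.96 and 6.34 on replicate 1 and 2.07, 2.78 and 2.38 on replicate 2, all 3 of them below the floor. With values under 4 set to 4 the difference over both lines was 2.71, against a fitted 3.51 ± 0.12 with those values as they stand (adjusted p at most 0.00394 under all alternatives run, limma). BNIP3L, which marks mitochondria for removal, differed by 1.58 ± 0.12, and DDIT4, an inhibitor of the mTOR pathway, by 1.29 ± 0.09. Of 18 other glycolysis and lactate genes, PGM1, a phosphoglucomutase, was higher (0.56 ± 0.09), and ADPGK, an ADP-dependent glucokinase, was lower (-0.49 ± 0.11), a call that 6 of the 12 fits without 1 array did not make. None of 12 regulators of the HIF pathway (median 0.02) and none of 7 pentose phosphate pathway genes (median -0.07) were called by limma, with 1 and 2 genes at an unadjusted p under 0.05. The 3′ to 5′ difference of ACTB was 1.01 to 1.11 on replicate 1 arrays and 0.87 to 1.97 on replicate 2 arrays. The summed linear signal of the 11 T and NK cell markers was 371 to 1060 on replicate 1 and 185 to 698 on replicate 2, and that of the B cell markers 29000 to 95400 and 24100 to 85400. The part of RNA quality or of these markers in the offset was not tested.

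Between the lines without drug, P4HA2 was below the floor in SEM-K2 and well above it in RS4:11, and ENO2 was above the floor on 1 SEM-K2 array and on neither of RS4:11. P4HA2, another form of the collagen prolyl hydroxylase subunit P4HA1, read 2.51 and 2.05 on the SEM-K2 vehicle arrays. It read 8.18 and 6.90 on those of RS4:11. It stayed between 2.05 and 2.66 on all 6 SEM-K2 arrays and between 6.90 and 8.45 on all 6 of RS4:11. SEM-K2 was thus at least 11.7-fold lower, counting its arrays at the floor of 4, and the fitted difference of -5.26 ± 0.39 had an adjusted p of 9.22e-06 in limma. P4HA2 passed the filter on low values through RS4:11 arrays alone, so that p-value is not separate from the filter. The other P4HA2 probe sets hardly exceeded the floor and gave -1.0 and 0.25, which put the mean of its probe sets at -2.0 (adjusted p = 0.0038).

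ENO2, the neuronal enolase, read 5.92 and 3.81 in SEM-K2 with vehicle, and 2.14 and 2.12 in RS4:11. All 6 RS4:11 arrays lay between 2.12 and 2.15, so SEM-K2 was at least 1.82-fold higher, a bound that rests on SEM-K2 vehicle replicate 1. The fitted difference was 2.74 ± 0.56 (adjusted p = 0.00705, limma), and it became 0.96 with values under 4 set to 4 (adjusted p = 0.269). Without SEM-K2 vehicle replicate 1 it was 1.68, with every vehicle array compared (3.81, 2.14 and 2.12) below the floor. ENO2 passed the filter on low values through SEM-K2 arrays alone. ENO1, the enolase of most tissues, differed by 0.25 ± 0.14 and did not pass.

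PFKM, the muscle phosphofructokinase, read 9.35 and 9.24 in SEM-K2 and 10.08 and 10.29 in RS4:11 with vehicle, a difference of -0.89 ± 0.15 (adjusted p = 0.00267). Its EC50 and 3xEC50 arrays read 9.11 and 9.33, then 9.09 and 9.06, in SEM-K2, and 9.87 and 10.09, then 9.79 and 9.87, in RS4:11. The 6 SEM-K2 arrays (9.06 to 9.35) lay below the 6 of RS4:11 (9.79 to 10.29). HK1, the hexokinase of most tissues, read 9.92 and 9.78 in SEM-K2 and 9.26 and 9.17 in RS4:11 (0.63 ± 0.19, adjusted p = 0.0444), a call lost in 10 of 12 fits without 1 array. These 2 higher and 2 lower genes were the calls among 30 members, where 10% of all genes were called higher and 9.6% lower.

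With the replicate number as a block, 11 members were called higher in SEM-K2 and 2 lower, where 13.8% of all genes were called higher and 13% lower. The additional genes were PFKFB4 (2.12, block SE 0.37), SLC2A3 (1.35), SLC2A1 (1.10), ALDOC (1.10), PDK1 (0.94), HK2 (0.91), PFKFB3 (0.81), P4HA1 (0.76) and KDM3A (0.72), with adjusted p-values in limma between 0.000515 and 0.03. Each of these 9 was higher in SEM-K2 at both numbers. None was called without the block. Leaving out 1 vehicle array in fits without the block changed the size of these differences. This leaves the other array of its number unmatched, so the offset between the numbers enters these values. Without SEM-K2 vehicle replicate 1 or RS4:11 vehicle replicate 2 they were lower, and without SEM-K2 vehicle replicate 2 or RS4:11 vehicle replicate 1 higher. PFKFB4 ran from 0.42 to 3.82 over these fits, PFKFB3 from 0.16 to 1.47, P4HA1 from 0.14 to 1.38, KDM3A from 0.06 to 1.38, SLC2A1 from 0.46 to 1.73, SLC2A3 from 0.82 to 1.88 and PDK1 from 0.52 to 1.35. SLC2A3 read 8.72 and 7.90 in SEM-K2 and 7.49 and 6.43 in RS4:11 with vehicle: SEM-K2 was higher at each number, although its replicate 2 array lay close to replicate 1 of RS4:11. ALDOC ran from -0.05, without SEM-K2 vehicle replicate 1 (adjusted p = 0.989), to 2.25. HK2 ran up to 1.23 and gave -0.02 as the mean of its probe sets (adjusted p = 0.949). ANKRD37 (0.02), EGLN1 (0.11) and HIF1A (0.07) lay near 0 and were not called with or without the block.

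**Figure D3:**
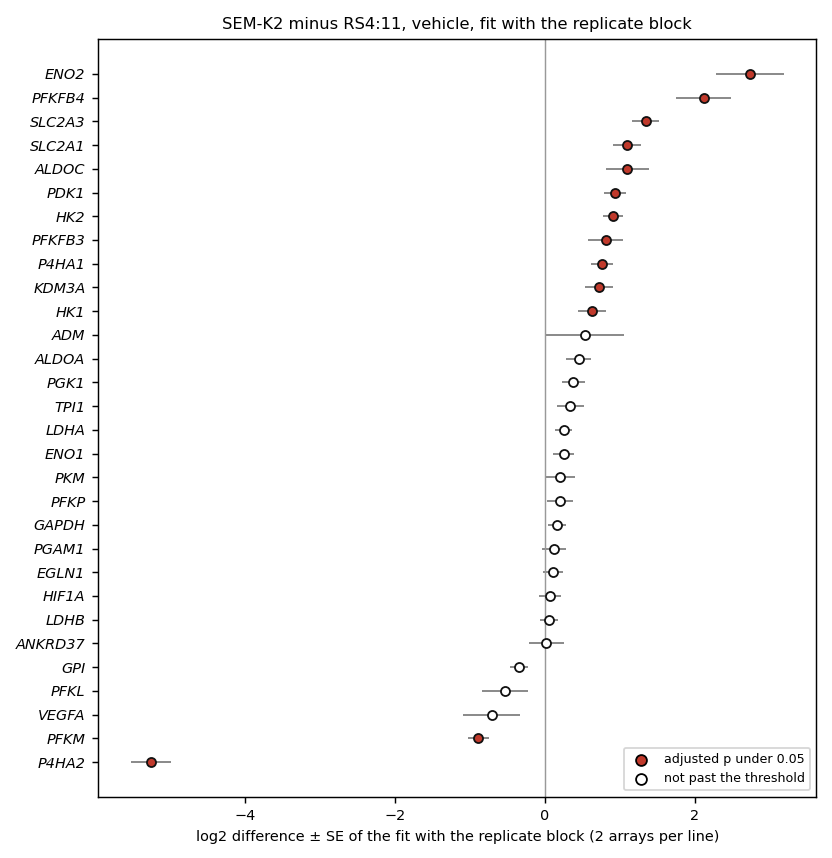
Difference of SEM-K2 minus RS4:11 with vehicle (horizontal axis, log2, with the SE of the fit that holds the replicate number as a block, 2 arrays per line) for the 30 tested members, with red points past an adjusted p of 0.05 in that fit. P4HA2 lies far to the left at -5.26, ENO2 and PFKFB4 to the right at 2.74 and 2.12, and 25 of 30 members lie above 0 (all genes 51.4%).

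Members of the chain lay on both sides of 0, from -0.89 for PFKM and -0.53 for PFKL to 2.74 for ENO2. The median of the members was 0.29 and that of all genes 0.01. In fits without the block, which leave 1 array unmatched, the member median was 0.12 without SEM-K2 vehicle replicate 1 and 0.62 without replicate 2. It was 0.50 without RS4:11 vehicle replicate 1 and 0.18 without replicate 2. Over all doses, 8 members had 6 SEM-K2 arrays above all 6 of RS4:11 (HK1, HK2, GAPDH, ENO1, ENO2, LDHA, SLC2A1 and PDK1), as did 15.1% of all genes. GPI, PFKM and P4HA2 had 6 SEM-K2 arrays below all 6 of RS4:11, as did 12.8% of all genes.

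Among 36 other hypoxia response genes, 6 were higher in SEM-K2 with vehicle and 1 lower (10% and 9.6% of all genes), and with the block 14 were higher and 2 lower (13.8% and 13% of all genes). STC2, a secreted glycoprotein gene, read 9.13 and 8.38 in SEM-K2 and 2.36 and 2.34 in RS4:11, at least 27-fold higher. BNIP3, a relative of BNIP3L, read 10.75 and 9.04 in SEM-K2 and 2.36 and 2.69 in RS4:11, at least 59.4-fold higher. PLOD2, a collagen lysyl hydroxylase gene, was at least 26.9-fold higher, and all 6 RS4:11 arrays lay below the floor for these 3 genes. They passed the filter on low values through SEM-K2 arrays alone. Among 18 other glycolysis and lactate genes 5 were higher and 2 lower. The lower ones were SLC2A5, a fructose transporter (-3.36 ± 0.31), and LDHC, the testis lactate dehydrogenase (-1.02 ± 0.16), and the higher ones included MPC1, of the mitochondrial pyruvate carrier (1.27 ± 0.21). None of 12 HIF pathway regulators was called, and with the block ELOC, a subunit of the VHL ubiquitin ligase, was lower (-0.49, adjusted p = 0.0346). None of 7 pentose phosphate genes was called. At an unadjusted p under 0.05 limma gave 1 of the regulators and 2 of the pentose phosphate genes.

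In SEM-K2 exposed to obatoclax for 6 h, over both doses, ENO2 and SLC2A3 had the highest changes relative to their error, and they passed with the replicate number as a block and not without it. GAPDH (0.00 ± 0.12 over both doses), LDHA (0.05 ± 0.14), ENO1 (0.07 ± 0.12) and HIF1A (0.00 ± 0.15) gave values close to 0, with the errors that 2 vehicle arrays allow. No member was called at 3xEC50, at the EC50 or over both doses, where 0.824%, 0.17% and 0.748% of all genes were. At an unadjusted p under 0.05 there was 1 member in each of these comparisons.

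In SEM-K2, ENO2 read 5.92, 7.14 and 7.48 on replicate 1 with vehicle, EC50 and 3xEC50, and 3.81, 6.35 and 6.84 on replicate 2. The 4 treated arrays lay above both vehicle arrays. The change was 2.29 ± 0.56 at 3xEC50 (adjusted p = 0.146, limma), 1.87 ± 0.56 at the EC50 (0.539) and 2.08 ± 0.48 over both doses (0.121). With the block the adjusted p was 0.0411 at 3xEC50 and 0.0332 over both doses, where 2.08% and 2.09% of all genes were called, and 0.154 at the EC50, where 0.436% were. The size rests on the vehicle arrays. Over both doses, in fits without the block, it was 3.14 without SEM-K2 vehicle replicate 1 and 1.03 without vehicle replicate 2. At the EC50 and 3xEC50 the changes were 1.21 and 1.55 within replicate 1, and 2.54 and 3.02 within replicate 2. In RS4:11 ENO2 stayed below the floor at every dose.

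SLC2A3, the high-affinity glucose transporter, read 8.72, 9.49 and 9.46 on SEM-K2 replicate 1 with vehicle, EC50 and 3xEC50, and 7.90, 8.87 and 9.01 on replicate 2. At each number the treated arrays lay above the vehicle array, by 0.73 to 1.11, and all 4 lay above both vehicle arrays. The change was 0.92 ± 0.51 at 3xEC50 and 0.90 ± 0.44 over both doses (adjusted p = 0.552, limma). With the block it passed at 3xEC50 (0.0383) and over both doses (0.0231), and not at the EC50 (0.112). Its other probe sets gave 0.12 and 0.30 at 3xEC50 and 0.54 and 1.02 at the EC50, which lie on either side of the value of 0.87 used at the EC50. In a fit without the block and without SEM-K2 vehicle replicate 2 the change over both doses was 0.49. That fit sets treated arrays of both numbers against vehicle replicate 1, and within replicate 1 the changes were 0.77 at the EC50 and 0.73 at 3xEC50. SLC2A14 is a near-identical copy whose RNA such probes may share.

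**Figure D4:**
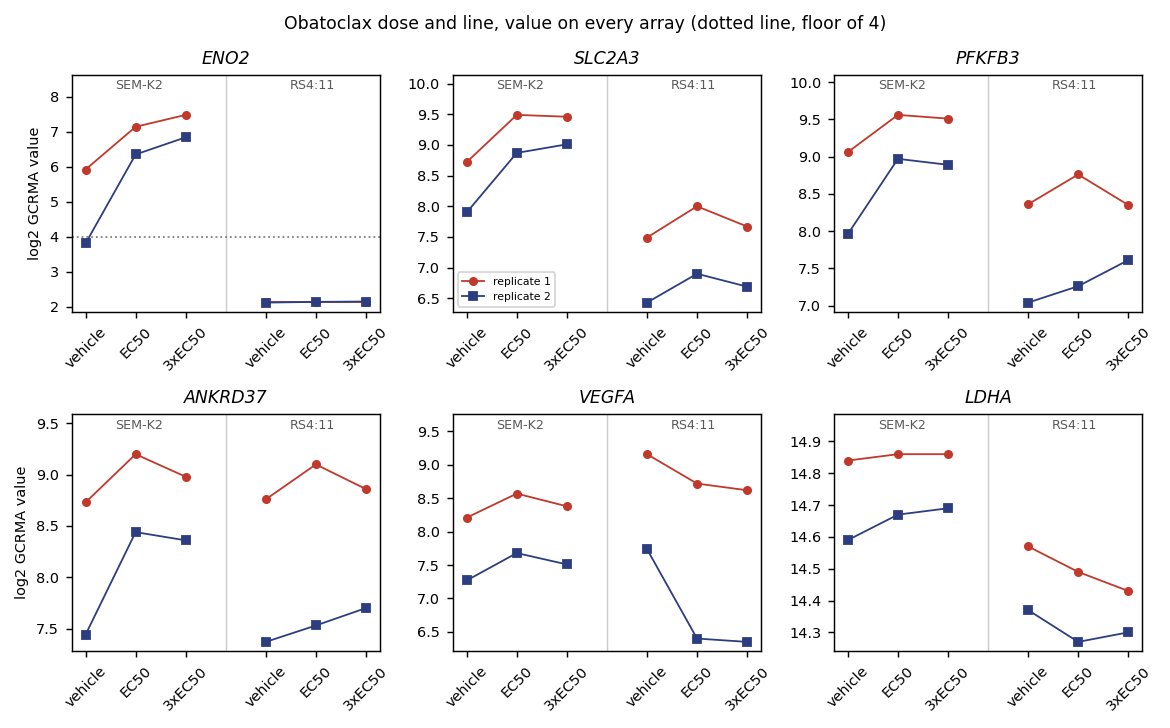
Log2 GCRMA value (vertical axis, 1 scale per gene) on every array of 6 members with vehicle, EC50 and 3xEC50 in SEM-K2 (left) and RS4:11 (right), with lines joining the arrays of replicate 1 (red circles) and replicate 2 (blue squares). ENO2 and SLC2A3 lie higher with obatoclax at both numbers in SEM-K2, ENO2 stays below the floor of 4 (dotted) in RS4:11, and VEGFA lies lower at both numbers in RS4:11 without passing the test.

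The plot by dose also shows PFKFB3 and ANKRD37, whose treated arrays lay above the vehicle array at both numbers in SEM-K2 without passing a test. PFKFB3 gave 0.72 ± 0.52 over both doses (adjusted p = 0.725, and 0.125 with the block). ANKRD37 gave 0.66 ± 0.59 (0.793, and 0.144 with the block). KDM3A gave 0.53, PFKFB4 0.72 and ALDOC 0.49 over both doses, none of them called. Over both doses 26 of 30 members lay above 0 (86.7%), against 60.8% of all genes, with a median of 0.22 against 0.06. When arrays were centred on the mean of the tested genes, 21 of 30 lay above 0 and the median was 0.15. In fits without the block these counts turned on which vehicle array was kept. Without SEM-K2 vehicle replicate 2, 11 of 30 lay above 0 with a median of -0.06, and without vehicle replicate 1 the median was 0.49. Such fits set treated arrays of both numbers against vehicle of 1 number, so the offset between the numbers enters the change. The median was 0.05 without EC50 replicate 1 and 0.09 without 3xEC50 replicate 1. It was 0.31 without EC50 replicate 2 and 0.32 without 3xEC50 replicate 2. SEM-K2 3xEC50 replicate 2 is the array that stood apart in RNA quality, and without it 25 of 30 members lay above 0. The part of RNA quality in these changes was not tested. At the EC50, which does not use 3xEC50 replicate 2, 25 of 30 members lay above 0 (all genes 61.9%). Without SEM-K2 vehicle replicate 2 or EC50 replicate 1 this was 9 and 11 of 30, in fits without the block. Without SEM-K2 vehicle replicate 1 or EC50 replicate 2 it was 26 and 27 of 30.

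Of the other lists in SEM-K2, no gene was called by limma without the block, and at 3xEC50 an unadjusted p under 0.05 was reached by 3 other hypoxia genes, 3 other glycolysis genes, 2 HIF pathway regulators and 0 pentose phosphate genes. With it SLC2A5 was higher at 3xEC50 (1.52, adjusted p = 0.0311) and so were BHLHE40, a transcriptional repressor induced by HIF1A (3.52, 0.0166), and VLDLR, a lipoprotein receptor (0.65, 0.0438). BHLHE40 read 5.15, 7.81 and 8.28 on replicate 1 with vehicle, EC50 and 3xEC50, and 2.67, 6.19 and 6.58 on replicate 2, where the vehicle array lay below the floor. Without a block, the change of BHLHE40 at 3xEC50 was 2.28 without SEM-K2 vehicle replicate 2, with treated arrays of both numbers set against vehicle replicate 1. The change of SLC2A5 at 3xEC50 was 0.45 as the mean of its probe sets, also without a block. MAFF, a small partner of stress transcription factors, was higher over both doses (0.94, 0.0299). Without a block MAFF was not called, and gave 0.30 without SEM-K2 vehicle replicate 2 and 1.58 without replicate 1, both with 1 array unmatched. It read 8.14, 8.97 and 8.90 on replicate 1 with vehicle, EC50 and 3xEC50, and 6.86, 8.02 and 7.86 on replicate 2. None of the HIF pathway regulators or pentose phosphate genes was called with or without the block.

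In RS4:11 no member was called at 3xEC50, at the EC50 or over both doses, where 0% of all genes were called. At an unadjusted p under 0.05 limma gave 518, 444 and 626 genes in these comparisons, of which 1, 0 and 0 were members. With the block 0 members and 0, 0 and 17 genes were called (0.161% over both doses). VEGFA read 9.16, 8.72 and 8.62 on RS4:11 replicate 1 with vehicle, EC50 and 3xEC50, and 7.74, 6.4 and 6.35 on replicate 2. Both numbers were lower with obatoclax, but replicate 1 at 3xEC50 lay above replicate 2 of vehicle, and the change over both doses was -0.93 ± 0.79 (adjusted p = 0.951, and 0.334 with the block). In SEM-K2 VEGFA gave 0.30 ± 0.79. PFKM was the member under an unadjusted p of 0.05 in RS4:11, at -0.36 ± 0.15 with 3xEC50 (adjusted p = 0.985, limma). The median of the members over both doses was 0.00, with 15 of 30 above 0 (all genes 55.2%). In fits without the block, which leave 1 array unmatched, the median was 0.12 with 20 of 30 above 0 without RS4:11 vehicle replicate 1. Without replicate 2 it was -0.17 with 4 of 30.

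The response of SEM-K2 minus that of RS4:11 over both doses was tested as a difference, and no member passed, where 0.0663% of all genes did. ENO2 had a difference of 2.07 ± 0.68 (unadjusted p = 0.0138, adjusted p = 1, limma), with RS4:11 below the floor throughout. VEGFA had 1.23 ± 1.11, SLC2A3 0.55 ± 0.63 and ANKRD37 0.43 ± 0.83, none of them called. With the block their SEs were 0.47, 0.22 and 0.28, and they were not called either. With the block the smallest adjusted p of a member was 0.469 in limma, where 0.0473% of all genes were called. A difference between the lines in the response of these genes was thus not detected with 2 arrays per condition.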

How the data were processed

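RNA was measured on 12 Affymetrix U133 Plus 2 arrays. Per the submitters' processing notes the authors made GCRMA values (version not given), and these deposited values were read as log2 from their range. Arrays carry no read depth, and their number limits the precision. Of 54675 probe sets, 41097 had 1 gene symbol, 1801 several and 11777 none, and 62 control probe sets were left out. A gene was represented by its probe set with the highest mean and kept where that exceeded 4 on at least 2 arrays (10561 genes). limma 3.58.1 in R 4.3.3 fitted 6 group means to all 12 arrays, with 6 residual and 3.27 prior degrees of freedom. P-values were adjusted by Benjamini-Hochberg within a comparison over all genes and called under 0.05. The replicate number was added as a block, and its own term compared replicate 1 with replicate 2. The fitting code was run on simulated arrays with independent noise and a replicate offset in a subset of genes. That run checks the code and not the error estimates of these data. A bound counts a dim array at the floor. Alternatives changed the filter, floor, probe sets, moderation, scaling and arrays. The members and the lists of other genes were chosen with earlier results of these data known. Array values are given for called members and for the isozymes that differed most between the lines, and from each other list up to 3 called genes per comparison with the smallest p are named; the genes in the plot by dose, the array values of NDRG1 and the printed promoters were chosen after their values were seen.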

Additional observations from a re-analysis of the deposited data

Results flagged for a closer look

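For NDRG1, a stress-responsive differentiation gene of the other hypoxia list, the difference of replicate 1 minus replicate 2 was itself larger in SEM-K2 than in RS4:11, by 1.43 on the log2 scale. The adjusted p was 0.0183 in limma with the number fitted within each line, where 0.227% of all genes were called. NDRG1 read 9.78, 10.31 and 10.43 on SEM-K2 replicate 1 with vehicle, EC50 and 3xEC50, and 8.06, 8.79 and 8.96 on replicate 2. In RS4:11 it read 6.37, 6.78 and 6.37 on replicate 1 and 6.28, 6.65 and 6.16 on replicate 2. BNIP3, PLOD2 and BHLHE40 did not exceed the floor on any of the 6 RS4:11 arrays, so no difference between the lines is given for them.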

How the results depend on the processing

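The replicate number as a block changed the calls of members most. SEM-K2 with vehicle against RS4:11 with vehicle gave 4 called members without the block, 13 with it and 14 with it within each line, the last including VEGFA (-0.71, adjusted p = 0.039). SEM-K2 with 3xEC50 gave 0 without the block, 2 with it and 2 with it within each line, and so did both doses in 1 contrast (0, 2 and 2). SEM-K2 with the EC50 gave 0 with and without the block and 2 with it within each line (ENO2, adjusted p = 0.0456, and SLC2A3, 0.0357). Without each array in turn the counts were 0 to 1 in the 3 SEM-K2 dose comparisons, the 1 coming without SEM-K2 vehicle replicate 1, 3 to 4 between the vehicle groups and 11 to 12 between the replicate numbers. In RS4:11 and in the difference of responses the count was 0 under every alternative run. The difference between the vehicle groups changed sign for ALDOC without SEM-K2 vehicle replicate 1 (-0.05, with 2.25 at the other end of the fits without 1 array) and for HK2 with the mean of its probe sets (-0.02). For ALDOC that fit had no block and set SEM-K2 vehicle replicate 2 (8.3) against the mean of both RS4:11 vehicle arrays (8.35). At each number ALDOC was higher in SEM-K2. The other HK2 probe sets gave -0.22 and -0.76, and why they differ was not tested. Signal near the floor limits ENO2, P4HA2 and ADM, and 2 arrays per condition limit every dose comparison.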
